A study of Homo sapiens with 6 samples.

Results

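Sites bound by HuR were described at the genes of 5 oncofetal transcripts that are known targets of the let-7 microRNAs, namely IGF2BP1, IGF2BP2, IGF2BP3, LIN28B and HMGA2. The members were chosen by position: every interval on the gene's own strand that overlapped one of 5 fixed hg19 loci was taken from each of 5 deposited lists. Together the loci spanned 668 kb and held 172 of the 186157 sites of replicate 1, 420 of the 405048 sites of replicate 2 and 607 of the 550681 sites of replicate 3. In the list the authors made from the 3 replicates combined they held 721 of 658853 sites. The cells were HEK293, a widely grown line from human embryonic kidney, and the labels name no treatment. Cell lysate was digested with micrococcal nuclease, which trims RNA that protein does not shield, and HuR was pulled down with the mouse antibody 3A2. Fragments of 25 to 70 nt were then recovered and sequenced, an assay called DO-RIP-seq. The labels also list 3 negative control pull-downs with normal mouse sera, which were not analysed here as separate values. All pull-downs drew on 1 pool of digested lysate, per the labels. The spread of the 3 HuR replicates may therefore be technical, and each SD below measures that spread.

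HuR, the product of ELAVL1, recognises stretches rich in U or in A and U within introns and 3' untranslated regions (UTRs), and stabilises many of the RNAs it binds. The let-7 microRNAs accumulate as cells differentiate and repress messages that are typical of fetal tissue and of many tumours. LIN28B binds let-7 precursors and blocks their maturation, and is itself repressed by let-7. HMGA2 is a chromatin protein that binds AT-rich DNA, and its long 3' UTR is a textbook let-7 target. IGF2BP1, IGF2BP2 and IGF2BP3 are RNA-binding proteins that protect and localise messages such as that of MYC.

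The mature let-7 sequences are shown because their seed, bases 2 to 8 from the 5' end, is what pairs with these messages. All 9 family members found in RefSeq (GRCh38.p14) carried the same seed, GAGGUAG, here in capitals in 3 of them.
let-7a-5p: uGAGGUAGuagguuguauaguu
let-7d-5p: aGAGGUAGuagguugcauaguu
miR-98-5p: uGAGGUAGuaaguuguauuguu
The complementary target word is CTACCTC in DNA letters. It was searched on the sense strand of 1 principal transcript a gene in GENCODE 29, in the annotated 3' UTR. It occurred 4 times in the IGF2BP1 UTR, 4 times in that of LIN28B and 4 times in that of HMGA2, and once each in those of IGF2BP2 and IGF2BP3. The share of annotated UTRs within 10% of the same length that held at least 1 match was 31.5% for IGF2BP1, 24.0% for LIN28B, 15.3% for HMGA2, 12.4% for IGF2BP3 and 11.1% for IGF2BP2. At least 4 matches, as in the member itself, were held by 0.637% for IGF2BP1, 0.171% for LIN28B and 0% for HMGA2. The members are known let-7 targets, so their counts are a description only. The match nearest to the stop codon is given for each gene on GRCh38 with the bases 5' of it, and the target word is in capitals.
IGF2BP1, chr17:49051062-49051083, plus strand: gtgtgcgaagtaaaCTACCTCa
IGF2BP2, chr3:185644220-185644241, minus strand: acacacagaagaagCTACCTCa
IGF2BP3, chr7:23311795-23311816, minus strand: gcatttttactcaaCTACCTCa
LIN28B, chr6:105078813-105078834, plus strand: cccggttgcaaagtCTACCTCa
HMGA2, chr12:65963299-65963320, plus strand: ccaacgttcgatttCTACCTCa
In each of these the target word was followed by an A, which was not so for 1 further match in IGF2BP1, 2 in LIN28B and 3 in HMGA2. The matches describe the messages only. They were not set against the HuR sites, whose positions are on hg19, and no position was carried from 1 build to the other.

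The loci on hg19 were chr17:47074774-47133507 on the plus strand for IGF2BP1 (58.7 kb), chr3:185361527-185542827 on the minus strand for IGF2BP2 (181 kb) and chr7:23349828-23510086 on the minus strand for IGF2BP3 (160 kb). LIN28B lay at chr6:105404923-105531207 on the plus strand (126 kb) and HMGA2 at chr12:66218240-66360071 on the plus strand (142 kb). Exons, introns and UTRs of hg19 were not used here, so places within a locus are given as the distance from its 3' end. Each interval carries the authors' LOD score, a number whose log base no source used here states. Score levels differ between lists, and scores are therefore ranked within a list as percentiles. Read depth is unknown. The replicate lists differed in length, and a bulk measurement such as this one cannot tell more bound RNA per molecule from more molecules of that RNA.

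LIN28B, the let-7 blocker, had 43 HuR sites in replicate 1, 132 in replicate 2 and 191 in replicate 3. The mean was 122 ± 74.5 (SD, n = 3), and replicate 1 was far below the others. Covered bases amounted to 14.8, 63.3 and 85.9 nt per kb of locus in the same order. The combined list had 217 LIN28B sites and covered 108 nt per kb, the densest of the 5 loci in that list.

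The IGF2BP1 locus, the shortest of the 5, had 31, 52 and 59 sites in the replicates in the same order. Their mean was 47.3 ± 14.6 (SD, n = 3). Its coverage was 26.6, 56.1 and 58.7 nt per kb. IGF2BP3 had 49, 117 and 168 sites, a mean of 111 ± 59.7 (SD, n = 3), with 14.1, 45.3 and 57.1 nt per kb. IGF2BP2 had 30, 79 and 119 sites, a mean of 76 ± 44.6 (SD, n = 3). They were spread over the longest of the 5 loci, which gave 7.03, 24.4 and 36.0 nt per kb. HMGA2 had the fewest sites, with 19, 40 and 70, a mean of 43 ± 25.6 (SD, n = 3), and 8.21, 20.9 and 26.9 nt per kb.

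Within each replicate, IGF2BP1, LIN28B and IGF2BP3 were the 3 loci with the densest coverage, and IGF2BP2 and HMGA2 the least covered. The order inside these groups was less stable. LIN28B exceeded IGF2BP1 in 2 of 3 replicates and IGF2BP2 exceeded HMGA2 in 2 of 3, while IGF2BP1 and LIN28B each exceeded IGF2BP3 in 3 of 3. Replicate 1 was low at each gene, and across replicates the ranges of every pair of loci overlapped. All loci were measured in the same 3 libraries, so the order within a replicate is the closer comparison. With 3 replicates an exact two-sided sign-flip test cannot give p below 0.25, and no p-value is given for these or the later comparisons. Relative to list length, LIN28B took 23.1, 32.6 and 34.7 of every 100000 sites and IGF2BP3 took 26.3, 28.9 and 30.5. IGF2BP1 took 16.7, 12.8 and 10.7, with its highest value in replicate 1, where the values of LIN28B, IGF2BP2 and IGF2BP3 were lowest. HMGA2 took 10.2, 9.88 and 12.7.

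**Figure D1:**
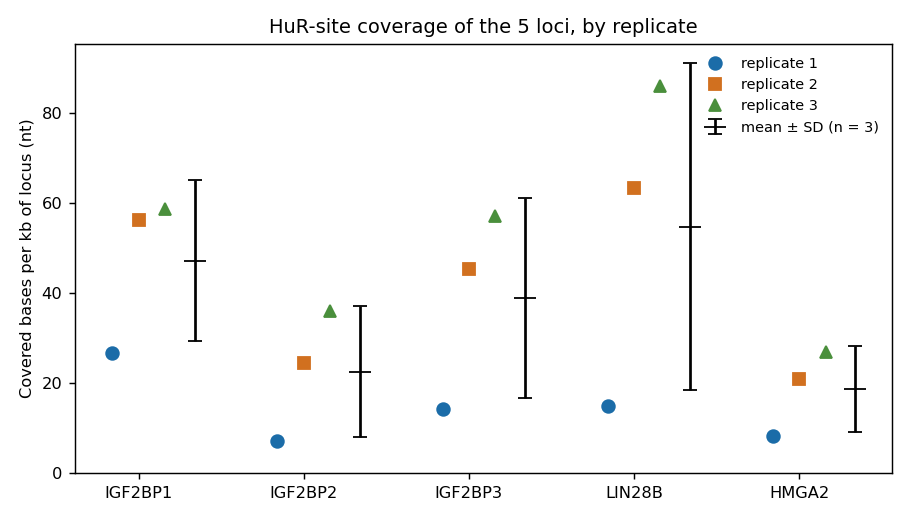
Bases covered by HuR sites per kb of locus (vertical axis) at the 5 loci, with 1 point for each replicate and the mean with its SD (n = 3) in black. Replicate 1 is the lowest point at every locus, and LIN28B has the widest spread, from 14.8 to 85.9 nt per kb.

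Coverage per kb was higher in the 3'-most 5 kb of each locus than in its rest, in each replicate. The 3'-most 5 kb of the loci made up 3.74% of their length, yet held 43.0% of the bases called in all 3 replicates and 17.3% of those called in any. By list, they held 41.5% of the covered bases in replicate 1, 24.8% in replicate 2, 15.1% in replicate 3 and 17.7% in the combined list. Bases called in all 3 can only lie where replicate 1, the shortest list, has sites. HMGA2 showed this most. Of its covered bases, 77.7%, 61.6% and 33.9% in replicates 1, 2 and 3 lay in the 3'-most 5 kb. Coverage there was 181, 366 and 258 nt per kb, against 1.90, 8.33 and 18.4 nt per kb in the rest of the locus. The ratio of the 2 was 95.3, 43.9 and 14.01, a mean of 51.1 ± 41.1 (SD, n = 3), and 28.97 without replicate 1.

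In LIN28B coverage was 185, 380 and 305 nt per kb in the 3'-most 5 kb against 7.75, 50.3 and 76.9 nt per kb elsewhere. Its ratio was 23.9, 7.56 and 3.97, a mean of 11.8 ± 10.6 (SD, n = 3), and 5.76 without replicate 1. For IGF2BP3 the ratio was 12.6, 6.60 and 4.00, with a mean of 7.75 ± 4.43 (SD, n = 3). For IGF2BP1 it was 7.93, 5.22 and 4.23, with a mean of 5.79 ± 1.91 (SD, n = 3). IGF2BP2 had the lowest mean for this stretch, with 7.76, 2.99 and 1.58 and a mean of 4.11 ± 3.24 (SD, n = 3), and 2.28 without replicate 1. Without replicate 1 it was 5.30 for IGF2BP3 and 4.72 for IGF2BP1. The order of the genes below HMGA2 depended on the stretch. For the 3'-most 2 kb the mean ratio was 48.1 for HMGA2, 19.3 for IGF2BP3, 12.2 for LIN28B, 10.4 for IGF2BP2 and 5.76 for IGF2BP1. For 5 kb the ratio was above 1 in all 15 pairs of locus and replicate. At each locus it was highest in replicate 1, the shortest list, and lowest in replicate 3, the longest.

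Among high-scoring sites the contrast was weaker in replicate 3 at each locus. For this, each list was limited to its 186157 sites with the highest scores, a setting chosen after seeing the data that leaves replicate 1 as it was. The ratio in replicate 2 was then 14.8 for HMGA2, 6.47 for LIN28B, 7.35 for IGF2BP3, 4.74 for IGF2BP1 and 3.23 for IGF2BP2. In replicate 3 it was 4.52 for HMGA2, 1.46 for IGF2BP1, 1.29 for IGF2BP2 and 1.05 for IGF2BP3. LIN28B fell below 1 there, at 0.561. LIN28B in replicate 3 was the 1 case in which the direction turned.

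**Figure D2:**
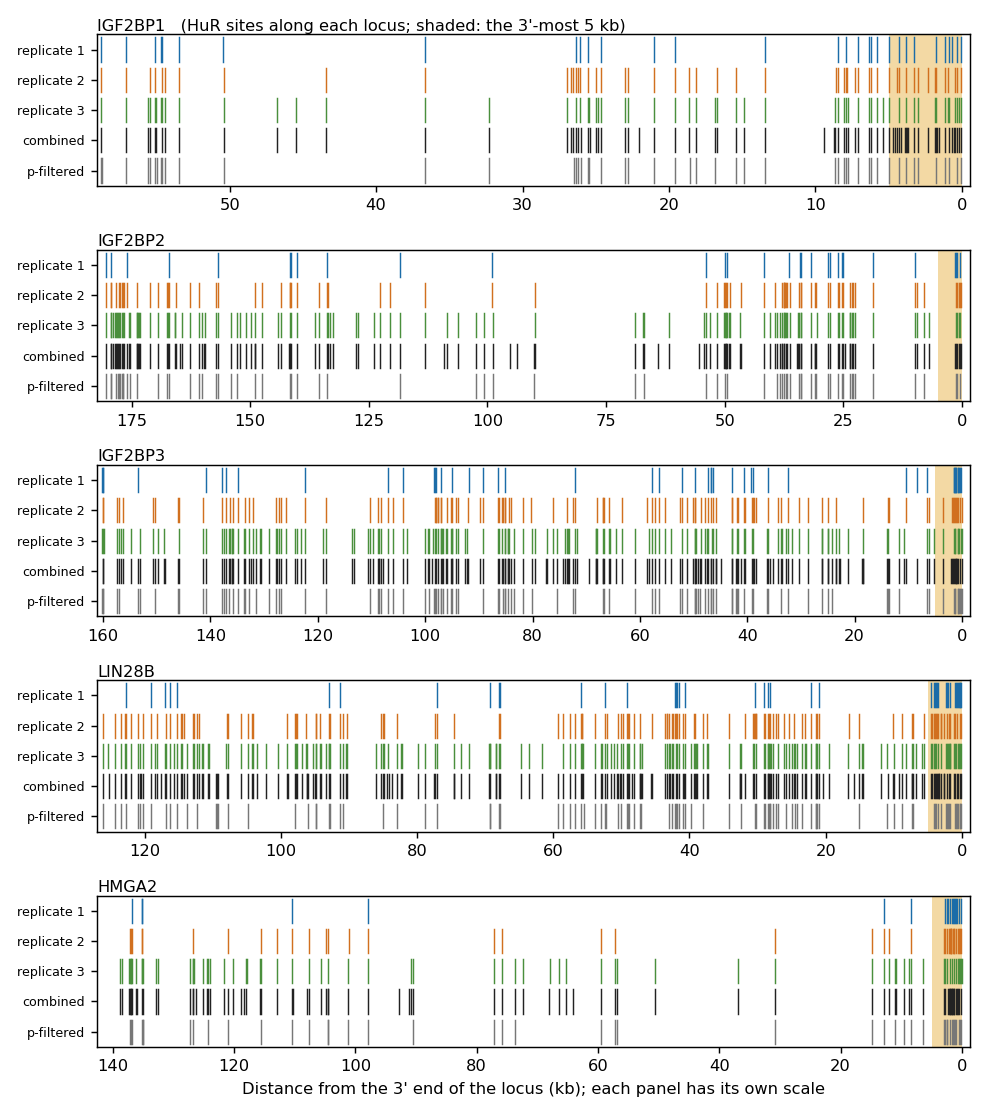
HuR sites along each locus, drawn as 1 tick for each site in the 3 replicate lists, the combined list and the p-filtered list, against the distance from the 3' end of the locus in kb, with the 3'-most 5 kb shaded. In HMGA2 the sites of replicate 1 are crowded at the 3' end, where 12 of 19 lie, while IGF2BP3 and LIN28B carry sites along their whole length in replicates 2 and 3.

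The covered stretch ended sharply in 3 genes. In HMGA2 every 1-kb bin of the 3'-most 3 kb had between 606 and 654 nt covered in any replicate, and 249, 311 and 305 nt in all 3 replicates. No base was covered by a replicate over the next 3425 nt, from 2961 to 6386 nt from the 3' end. The annotated 3' UTR of HMGA2 is 3003 nt long in GENCODE 29. In IGF2BP2 the 3'-most bins had 251 and 164 nt covered in any replicate, followed by 5510 nt without a site, and its annotated UTR is 1792 nt long. In IGF2BP3 the 3'-most bins had 753 and 510 nt and the next had 0 nt, beside an annotated UTR of 2153 nt. In LIN28B covered bases fell from 733 nt in the 3'-most bin to 165 nt in the fifth and 60 nt in the sixth, and its UTR is 4549 nt long. IGF2BP1 differed in that coverage extended over the 3'-most 9 bins, with between 63 and 435 nt in each, and its UTR is 6206 nt long. These UTR lengths come from GRCh38 transcripts, whose ends need not be those of the hg19 loci, so sites were not assigned to UTRs.

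**Figure D3:**
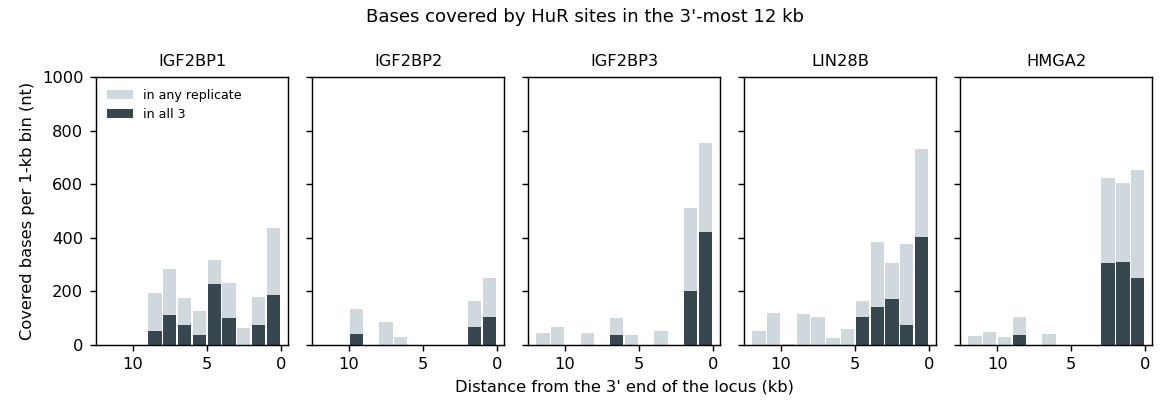
Bases covered by HuR sites in each 1-kb bin of the 3'-most 12 kb of the 5 loci, with bases called in any replicate in light grey and those called in all 3 in dark grey. HMGA2 falls from 625 nt to 0 nt at 3 kb from its 3' end, and IGF2BP3 from 510 nt to 0 nt at 2 kb.

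Sites near the 3' end included the widest ones of 3 genes, and ranked low in score within the replicate lists in 4. The widest combined sites of IGF2BP3 (605 nt, 113 nt from the 3' end), LIN28B (380 nt, 542 nt from it) and HMGA2 (385 nt, 2171 nt from it) were each found in all 3 replicates. Median site widths over whole loci were 45 to 57.5 nt in the combined list, beside 50 nt over all its sites. Sites in the 3'-most 5 kb of IGF2BP1 had median score percentiles of 15.3, 9.10 and 4.86 in replicates 1, 2 and 3, against 60.9, 54.7 and 58.1 in the rest of the locus. In LIN28B the medians were 16.8, 12.2 and 9.83 against 38.4, 48.0 and 51.4. In HMGA2 they were 23.7, 9.22 and 13.3 against 34.0, 52.0 and 48.7, and in IGF2BP3 16.7, 14.1 and 33.6 against 40.2, 50.3 and 51.7. The 3' sites thus ranked lower in every replicate for these 4 genes. IGF2BP2, with 4 or 5 such sites in a replicate, was mixed, with 52.5, 6.76 and 42.8 against 45.5, 48.3 and 54.4. Among sites of 30 to 60 nt only, the mean difference was -55.7 ± 4.46 points for IGF2BP1 and -40.6 ± 20.1 points for LIN28B (SD, n = 3 for both). For IGF2BP3 it was -16.5 ± 49.4 points (SD, n = 3), so among sites of like width its difference was smaller than the spread between replicates. The p-filtered list, with sites of all widths, differed from the replicate lists. Its medians at the 3' end were 33.9 for IGF2BP1, 35.1 for HMGA2, 49.2 for LIN28B, 67.9 for IGF2BP3 and 93.7 for IGF2BP2. In the rest they were 51.5, 36.5, 43.2, 39.6 and 49.6 in that order. There the 3' sites ranked lower in IGF2BP1 and, by little, in HMGA2 only.

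**Figure D4:**
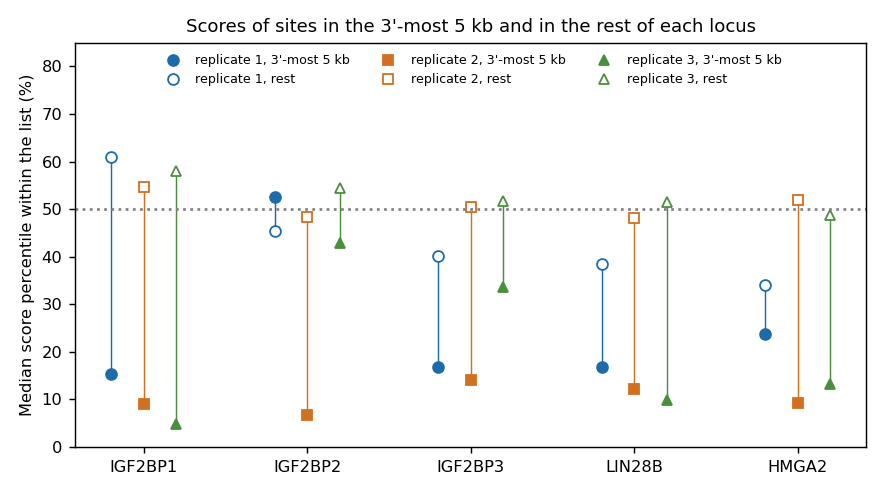
Median score percentile of HuR sites within their own replicate list, for the 3'-most 5 kb (filled symbols) and the rest (open symbols) of each locus, with 1 vertical pair for each replicate and a dotted line at the list median of 50%. The filled symbol is the lower of the pair in 14 of 15 pairs, the exception being IGF2BP2 in replicate 1.

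Over whole loci the scores were near or below the middle of the lists. The median percentile was 52.5 ± 3.93 for IGF2BP1, 49.1 ± 4.66 for IGF2BP2, 46.5 ± 7.08 for IGF2BP3, 41.9 ± 11.3 for LIN28B and 36.4 ± 6.07 for HMGA2 (SD, n = 3 for each). HMGA2 lay below 50 in each replicate, with 32.1, 33.7 and 43.3. LIN28B did so in each as well, with 29.01, 46.6 and 49.9. Of the 721 combined sites, those in the top 10% of the combined list by score were 14 of 76 in IGF2BP1 (18.4%), 12 of 138 in IGF2BP2 (8.70%) and 13 of 206 in IGF2BP3 (6.31%). LIN28B had 5 of 217 (2.30%) and HMGA2 1 of 84 (1.19%). By construction 10% of all sites are in this class, so IGF2BP1 stood above that share and LIN28B and HMGA2 well below it. IGF2BP1 was above 10% at the other end too, with 20 of its 76 sites in the bottom 10% of the combined list. HMGA2 had 13 of 84 there, IGF2BP2 6 of 138, IGF2BP3 16 of 206 and LIN28B 16 of 217.

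Recurrence varied between the loci. A combined site overlapped a site in all 3 replicate lists by at least 1 nt in 135 of 721 cases, or 18.7% (95% exact Clopper-Pearson interval 15.9 to 21.8, counting error only), beside 22.9% over all combined sites. IGF2BP1 stood above the whole list with 29 of 76, or 38.2% (27.2 to 50.02). LIN28B stood below it with 32 of 217, or 14.7% (10.3 to 20.2). IGF2BP2 had 26 of 138 (18.8%), IGF2BP3 34 of 206 (16.5%) and HMGA2 14 of 84 (16.7%). Sites of 1 locus come from 1 gene and are not independent, so these intervals are too narrow for a comparison of genes. Without replicate 1, 49.2% of the combined sites at the loci were found in both other lists. That share over all combined sites was not computed. The 22.9% above requires all 3 lists and is no reference for it.

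Recurrence differed between the 3' end and the rest. In the 3'-most 5 kb, 36 of 81 combined sites were found in all 3 replicates, or 44.4% (33.4 to 55.9), against 99 of 640, or 15.5% (12.8 to 18.5), in the rest. The difference was 28.98 percentage points, and 8.51 points without replicate 1. Sites found in no replicate list were also more frequent at the 3' end, with 16 of 81 (19.8%) against 63 of 640 (9.84%). The share over all combined sites was 11.0%, and 9 of those 16 were in IGF2BP1. By list, replicate 1 held 51.9% of the 3' sites and 17.2% of the others, beside 25.4% of all combined sites. Replicate 2 held 71.6% and 54.1%, beside 59.2%, and replicate 3 held 59.3% and 83.9%, beside 80.2%. Replicate 3 thus went the other way. In LIN28B 11 of 21 sites recurred at the 3' end and 21 of 196 elsewhere. In HMGA2 the counts were 8 of 17 and 6 of 67, in IGF2BP3 5 of 12 and 29 of 194, and in IGF2BP2 3 of 6 and 23 of 132. IGF2BP1 was the exception, with 9 of 25 at the 3' end and 20 of 51 elsewhere.

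**Figure D5:**
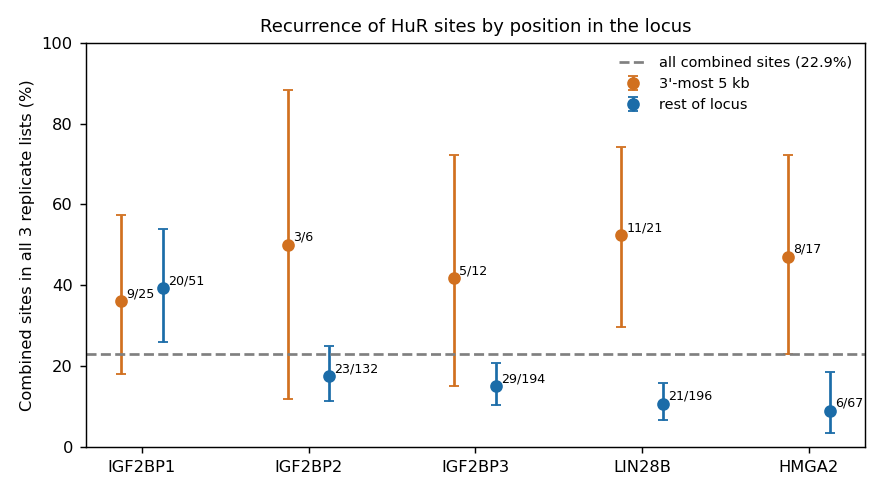
Share of combined sites found in all 3 replicate lists (vertical axis, %) for the 3'-most 5 kb and the rest of each locus, with 95% exact binomial intervals, the counts beside each point and a dashed line at 22.9%, the share over all combined sites. The 3'-most share is the higher of the pair in 4 genes, from 41.7% to 52.4%, and not in IGF2BP1.

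Recurrence was also counted from each replicate list. In replicate 1, 30 of 31 IGF2BP1 sites, 27 of 30 IGF2BP2 sites, 41 of 49 IGF2BP3 sites, 39 of 43 LIN28B sites and 18 of 19 HMGA2 sites overlapped a site in both other lists, beside 89.1% of all its sites. In replicate 2 the shares were 55.8% for IGF2BP1, 37.5% for HMGA2, 32.9% for IGF2BP2, 30.8% for IGF2BP3 and 25.0% for LIN28B, beside 37.8%. In replicate 3 they were 50.8% for IGF2BP1, 22.9% for HMGA2, 22.6% for IGF2BP3, 21.8% for IGF2BP2 and 18.8% for LIN28B, beside 28.4%. IGF2BP1 was above the list's share in each replicate. IGF2BP3 was below it in each.

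Counted over bases, the 3' end had the higher share at each gene, IGF2BP1 included. Of the 39280 nt called in any replicate at the 5 loci, 18.6% were called in all 3, beside 21.8% over the whole series. The share was 36.2% for IGF2BP1, 24.4% for HMGA2, 18.0% for IGF2BP3, 14.4% for IGF2BP2 and 13.6% for LIN28B. In the 3'-most 5 kb it was 47.9% for IGF2BP1, 47.2% for IGF2BP3, 45.9% for HMGA2, 45.5% for LIN28B and 41.0% for IGF2BP2. In the rest of the locus it was lower for each gene, from 7.65% for LIN28B to 31.1% for IGF2BP1. Divided into 10-kb windows from the 3' end, every locus had the most such bases in the first window. That window held 80.4% of them in HMGA2 (900 nt), 58.6% in IGF2BP1 (860 nt), 52.8% in LIN28B (895 nt), 33.4% in IGF2BP3 (655 nt) and 19.8% in IGF2BP2 (210 nt). Within single lists this did not always hold. The first window of IGF2BP2 had 515 and 505 nt in replicates 2 and 3, below 1035 and 1340 nt at 30000 to 40000 nt from the 3' end. In replicate 3 that of IGF2BP3 had 1168 nt, below 1257 nt at 90000 to 100000 nt.

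An interval of the authors' further list, limited at p 0.05, overlapped 366 of the 721 combined sites by at least 1 nt. These sites, called kept here, made up 50.8% (47.0 to 54.5), beside 52.3% over all combined sites. The p-filtered list held 388 intervals at the 5 loci, with ends and scores that can differ from those of the combined sites. IGF2BP1 kept 48 of 76 (63.2%), IGF2BP3 108 of 206 (52.4%), IGF2BP2 70 of 138 (50.7%), LIN28B 101 of 217 (46.5%) and HMGA2 39 of 84 (46.4%). Of the 135 sites found in all 3 replicates 134 were kept, and the 1 without such an overlap was in LIN28B. Over the whole list the filter kept 147755 of 150603 such sites (98.1%), so the loci were near that share. In the 3'-most 5 kb the filter kept 40 of 81 sites, and 326 of 640 elsewhere, but the genes differed. In IGF2BP1 it kept 10 of 25 (40%) at the 3' end and 38 of 51 (74.5%) elsewhere. LIN28B went the other way, with 12 of 21 (57.1%) and 89 of 196 (45.4%), as did HMGA2 with 9 of 17 (52.9%) and 30 of 67 (44.8%). IGF2BP2 kept 3 of 6 and 67 of 132, and IGF2BP3 6 of 12 and 102 of 194. Combined sites found in all 3 replicates had a median LOD of 10.2 at the 5 loci, those in 2 had 7.79, those in 1 had 5.05 and those in none had 3.34. The same medians over the whole list were 11.2, 7.76, 5.04 and 3.12. Scores of the combined list draw on the same libraries as the replicate lists and are not independent of recurrence.

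The strongest sites lay in various parts of the loci. For each gene the 3 sites with the highest combined LOD among those found in all 3 replicates were examined, and 3 of these 15 lay in the 3'-most 5 kb, which held 36 of the 135 sites they were drawn from. All 15 were kept by the p filter, as were 134 of the 135 sites they were drawn from, so this does not set them apart. The highest of these combined scores belonged to an IGF2BP1 site at chr17:47125556-47125655, 7.85 kb from the 3' end, with a combined LOD of 19.5. Its replicate scores were 7.13, 10.3 and 7.42, at percentiles 83.4, 99.9 and 99.0 of their lists. A site at chr17:47080021-47080095, in the 5' part of the gene and 53.4 kb from the 3' end, had a combined LOD of 18.5 and replicate percentiles of 96.7, 97.1 and 98.9. Another, at chr17:47129131-47129285, reached 17.1 and lay 4.22 kb from the 3' end. These sites ranked high in each of the 3 replicates. They were picked by a combined score from the same libraries, so their ranks are a description and not independent support.

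In IGF2BP2 the leading site was at the 3' end, at chr3:185362741-185362840, 1.21 kb from it. It had a combined LOD of 17.8, replicate scores of 9.64, 7.83 and 6.31, and a mean percentile of 96.0 ± 1.08 (SD, n = 3). The next, at chr3:185403096-185403160 and chr3:185371396-185371445, had combined LODs of 16.1 and 15.7 and lay 41.6 and 9.87 kb from the 3' end. In IGF2BP3 the leading site, chr7:23396431-23396525, lay 46.6 kb from the 3' end and had a combined LOD of 17.1, with replicate scores of 11.3, 8.71 and 6.37. Its mean percentile was 97.7 ± 2.19 (SD, n = 3). A 300-nt site at chr7:23447851-23448150 had 16.1. The site at chr7:23509716-23509815, within 1 kb of the 5' end, had 13.8, and its replicate percentiles spread from 98.8 in replicate 1 to 69.5 in replicate 3.

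The leading sites of LIN28B ranked lower, at percentile 94.1 of the combined list or below. The first, chr6:105490466-105490540, had a combined LOD of 13.5 and scores of 3.74, 7.41 and 6.38, at percentiles 18.1, 94.0 and 95.3. Replicate 1 thus placed it among the low scores, while the other two placed it near the top. The next were chr6:105478766-105478860 at 13.3, with a mean percentile of 82.6 ± 13.1, and chr6:105510156-105510225 at 12.4, with 68.0 ± 26.3 (SD, n = 3 for both). In HMGA2 the leading site was chr12:66249651-66249695, 110 kb from the 3' end, with a combined LOD of 17.6. The same 45 nt were called in each list, and the replicate scores of 8.50, 7.73 and 5.47 stood at percentiles 92.9, 95.7 and 86.5. It was the 1 HMGA2 site in the top 10% of the combined list. The next, chr12:66357296-66357420, lay 2.65 kb from the 3' end and had 11.9, and chr12:66347141-66347200 had 11.1. The p-filtered list ranked sites differently. There the 3 LIN28B sites had LODs of 14.4, 16.7 and 13.0, below the highest LIN28B score of 21.8, at percentile 98.3. IGF2BP3 (25.4) and HMGA2 (20.6) also had higher scores there than their named sites, while IGF2BP1 and IGF2BP2 did not.

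Scores of the 135 combined sites found in all 3 replicates were correlated between lists. Replicates 1 and 2 gave a Pearson r of 0.672, with a Spearman rho of 0.598. Replicates 1 and 3 gave 0.577 and 0.521, and replicates 2 and 3 gave 0.794 and 0.730. For the same pairs in that order, Pearson's r was 0.854, 0.796 and 0.893 over the 29 IGF2BP1 sites and 0.452, 0.407 and 0.804 over the 32 LIN28B sites. These are correlations across sites that share libraries and, within a gene, a transcript, and are given as a description.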

How the data were processed

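Per the labels' protocols, HEK293 lysates were digested, pooled and divided over 3 HuR and 3 control pull-downs. Per the submitters' processing notes, cutadapt 1.0, TopHat2 2.0.8 and the build hg19 (GRCh37) were used. In the deposited lists each interval has 1 value, the authors' LOD score, and no source used here states how it was obtained. Interval ends lie on a grid of 5 nt, all scores are above 0, and the p-filtered list was limited by the authors at p 0.05, per its name. Groups follow the sample titles.

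Same-strand intervals overlapping each locus were selected, counted and plotted in Python 3.11.15 (scipy 1.17.1, pandas 2.3.3, numpy 2.4.6, matplotlib 3.10.9). Intervals that shared 1 nt or more were matched, and covered bases were clipped to the locus. Percentiles are ranks of LOD within a list. Matching was tested on 20000 simulated sites, with 100% recovered. Coordinates are 1-based. Reads of other genes on the same strand within a locus cannot be told apart from the member's. Members, loci and comparisons were chosen with earlier results of these data known. Named sites are the 3 highest combined LODs per locus among sites in all 3 replicates, and the 10-kb window with the most bases in all 3. The let-7 and UTR counts use GENCODE 29 transcripts and were added after the files were seen, because no sequence or annotation of hg19 was used here. For the same reason the planned sequence features of sites, transcript regions and further let-7 pathway genes were not run. Alternatives were other score limits, overlaps, stretch lengths, site widths, equal list sizes and leaving out each replicate.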

Additional observations from a re-analysis of the deposited data

How the results depend on the processing

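The 38 results were recomputed under alternatives, which gave 195 values. Of these, 161 differed from the reported value by less than a limit, 30 by more, and 4 changed direction. The limit was a factor of 1.5 for counts of sites, the 95% binomial interval for shares and 1 SD over replicates otherwise, which is wide with 3 replicates. Alternatives for the coverage ratio with equal list sizes, for percentile differences and for the excess at the 3' end were chosen after seeing the data. With equal numbers of the highest-scoring sites, the mean number of sites was 24 for IGF2BP1, 35.3 for IGF2BP2, 48.3 for IGF2BP3, 49.7 for LIN28B and 14 for HMGA2. With at least 50% of each interval shared, the share found in all replicates was 11.0% over the 5 loci, 26.3% for IGF2BP1, 8.25% for IGF2BP3 and 6.91% for LIN28B, and its excess at the 3' end was 14.1 points. That excess was 42.9 points at LOD above 1. With at least 50% of the interval covered, the p filter kept 41.7% over the 5 loci and 34.1% for LIN28B. It kept 75.0% of IGF2BP1 sites at LOD above 1 and 77.4% at LOD above 2. For the 3'-most 2 kb the coverage ratio was 10.4 for IGF2BP2 and 19.3 for IGF2BP3, and the percentile difference of LIN28B was -20.0. For the 3'-most 10 kb that difference was -28.8 for IGF2BP1, -11.5 for IGF2BP3 and, reversed, 18.0 for IGF2BP2. Among sites of 30 to 60 nt it was -55.7 for IGF2BP1 and -16.5 for IGF2BP3, with no value for IGF2BP2 and HMGA2, and the median percentile was 53.5 for IGF2BP2, across 50, and 48.9 for HMGA2. Leaving out each replicate gave shares in all remaining lists from 19.3% to 49.2% over the 5 loci, 38.2% to 60.5% for IGF2BP1, 19.6% to 50% for IGF2BP2, 17.0% to 45.6% for IGF2BP3, 15.2% to 53.5% for LIN28B and 16.7% to 35.7% for HMGA2. The excess at the 3' end ranged from 8.51 to 29.7 points. The highest shares and the lowest excess came without replicate 1, the shortest list, where the definition also changes from 3 lists to 2. Median percentiles ranged from 46.5 to 50.9 for IGF2BP2 and from 43.9 to 50.5 for IGF2BP3, and both crossed 50 without replicate 1. Lists of equal size hold fewer sites by construction. The cause of the other moves was not tested. All 40 mean coverage ratios under these alternatives were above 1. Unknown depth limits statements on missing sites. No paired analysis was possible because negative control samples, which share replicate numbers with the HuR samples, were not analysed here.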

Other observations

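The opposite strand of the loci was nearly empty. The combined list held 14 opposite-strand sites beside 721 on the genes' own strands, with 4 in IGF2BP1, 4 in IGF2BP2, 5 in IGF2BP3, 0 in LIN28B and 1 in HMGA2. GENCODE 29 annotates genes on the opposite strand that overlap each member, among them MALSU1 at IGF2BP3, IGF2BP2-AS1 at IGF2BP2, LIN28B-AS1 at LIN28B and RPSAP52 at HMGA2.

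Coverage beside the loci on the same strand varied between genes. In the 10 kb after the 3' end, coverage was 0 nt per kb for HMGA2 in each replicate, and 0, 0 and 4.5 nt per kb for IGF2BP1 in replicates 1, 2 and 3. LIN28B had 0, 1.5 and 5.5 nt per kb and IGF2BP3 had 4, 12.2 and 11.7 nt per kb. The 10 kb after the end of IGF2BP2 had 12.5, 57.0 and 59.5 nt per kb, above the 7.03, 24.4 and 36.0 nt per kb of the locus itself in every replicate. Which transcript gave these sites was not examined, since no hg19 annotation was used here. Before the 5' end, IGF2BP2, IGF2BP3 and HMGA2 had 0 nt per kb in each replicate, IGF2BP1 had 6.8, 15.8 and 12.8 nt per kb and LIN28B had 4, 4 and 7 nt per kb.

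All 5 loci also carried sites in their 5'-most segment, which is longer in longer loci. When each locus was split into 10 equal segments, the 5'-most segment of IGF2BP2 held 1810 of the 8080 nt that the combined list covered in the locus, and 120 nt there were called in all 3 replicates. In IGF2BP1 the 5'-most segment held 207 nt called in all 3 replicates, after 625 nt in the 3'-most segment and 235 nt in the one beside it. The 5'-most segment held 190 nt called in all 3 replicates in IGF2BP3, 180 nt in LIN28B and 90 nt in HMGA2. The combined site nearest to the 5' end of HMGA2, chr12:66221201-66221235, was found in 1 replicate and had a LOD of 1.12.

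The annotated 3' UTRs of the members differed in AU-rich words. ATTTA occurred 3.33 times per kb in HMGA2, 3.30 in LIN28B, 3.25 in IGF2BP3, 1.77 in IGF2BP1 and 1.12 in IGF2BP2, beside 2.26 over the UTRs of 18896 genes. The longer word TATTTA, which overlaps ATTTA, occurred 6 times in LIN28B, 2 times in HMGA2, once each in IGF2BP1 and IGF2BP2 and 0 times in IGF2BP3. Per kb this was 1.32 in LIN28B, 0.666 in HMGA2, 0.558 in IGF2BP2 and 0.161 in IGF2BP1, beside 0.806 over all UTRs. Of other UTRs within 10% of the same length, 90.1% held the word for LIN28B, 83.6% for HMGA2, 65.6% for IGF2BP2, 93.3% for IGF2BP1 and 72.5% for IGF2BP3. At least as many as in the member were held by 25.7% for LIN28B and 61.5% for HMGA2. Of other UTRs within 10% of the same length, 98.3% held an ATTTA for LIN28B and 96.7% for HMGA2. At least as many ATTTA as in the member were held by 25.0% for LIN28B, 26.6% for HMGA2 and 28.0% for IGF2BP3. For IGF2BP1 this share was 72.3% and for IGF2BP2 74.1%. Overlapping TTTTT words occurred 15.3 times per kb in IGF2BP3, 12.3 in IGF2BP2, 8.33 in HMGA2, 8.06 in IGF2BP1 and 7.25 in LIN28B, beside 7.33 over all UTRs. These words were counted on the sense strand of GRCh38 transcripts and were not joined to HuR sites.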
